A study of Mus musculus with 10 samples.

Results

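Genes of the brain endothelium and of blood vessel growth were followed in the visual cortex of young mice after the loss of one eye. The set held 10 genes: Cldn5, Pecam1, Flt1, Kdr, Tek, Tie1, Cdh5, Eng, Vegfa and Ly6a. Members were taken as all probe sets, other than controls, whose 1 annotated gene symbol was one of these names. The rule found 11 probe sets for 9 of the 10 genes, out of 12422 probe sets on the arrays, where 8251 genes had a probe set with a single symbol. Flt1 and Tie1 were read by 2 probe sets each and the others by 1. No probe set of the annotation table used here carried Ly6a as its single symbol, and that gene was not analysed here.

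All samples came from wild-type C57Bl6 mice in which one eye had been removed at postnatal day 14, with tissue collected 4 days after that, at postnatal day 18. Visual cortex opposite the lost eye gave the 5 deprived samples and visual cortex on the same side as it gave the 5 non-deprived samples, each hybridised to 1 single-colour Affymetrix array. Both groups shared the surgery and there was no intact control. The labels mention 4 mice and pooled samples and do not say which animals went into which sample, so the p-values measure the spread between these samples, which may be technical in part. Signals below are MAS5 values in arbitrary units, the authors' summary of each probe set on a linear scale.

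The endothelium of the brain forms the blood-brain barrier. Its cells are joined by tight junctions made of claudins and by adherens junctions made of a vascular cadherin. Vascular endothelial growth factor is released by cells of the tissue and acts on receptor tyrosine kinases of the endothelium, and the angiopoietins act on the Tie receptors, which keep vessels stable. In rodents the capillary bed of the cortex is still growing in the weeks after birth, and neural activity is known to affect that growth. In these samples of whole cortex, fewer endothelial cells and less RNA per endothelial cell cannot be told apart.

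Sequences before the transcription start were looked up in RefSeq windows of build GRCm38.p6, and 7 of the 10 genes matched, with 8 windows. The 250 bases before the start were searched on both strands for GGAA, the core that ETS factors bind, since ETS factors such as Erg and Fli1 are known regulators of endothelial genes. GGAA and its reverse complement cannot overlap each other. The windows of Cldn5, Flt1 and Tie1 are shown because they span the range found among the members and belong to the genes described most closely below. Capitals mark GGAA or, on the other strand, TTCC.
Cldn5, chr16:18776597-18776846, plus strand: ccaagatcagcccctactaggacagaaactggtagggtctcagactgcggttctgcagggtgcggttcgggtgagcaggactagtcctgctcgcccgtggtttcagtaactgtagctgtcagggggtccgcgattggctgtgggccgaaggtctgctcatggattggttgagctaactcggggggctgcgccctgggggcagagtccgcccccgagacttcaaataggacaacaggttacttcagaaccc
Flt1, chr5:147726012-147726261, minus strand: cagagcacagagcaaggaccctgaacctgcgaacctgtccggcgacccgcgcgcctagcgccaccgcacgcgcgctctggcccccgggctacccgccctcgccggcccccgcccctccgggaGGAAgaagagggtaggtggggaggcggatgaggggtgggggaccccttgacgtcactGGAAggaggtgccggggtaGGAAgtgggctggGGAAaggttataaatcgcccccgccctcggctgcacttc
Tie1, chr4:118489850-118490099, minus strand: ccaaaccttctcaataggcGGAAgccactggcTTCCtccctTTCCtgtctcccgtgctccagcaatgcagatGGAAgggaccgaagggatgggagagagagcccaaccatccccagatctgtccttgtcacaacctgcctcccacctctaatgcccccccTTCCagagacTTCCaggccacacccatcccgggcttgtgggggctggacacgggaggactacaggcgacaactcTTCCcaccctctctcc

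The Cldn5 window held no GGAA on either strand, the Flt1 window held 4 and the Tie1 window 7. Of 32851 such windows of all genes, 93.4% held at least 1, the median was 3, and 3.82% held 7 or more. The Eng window held 3, the Kdr window 4 and the Tek window 2, while the 2 Vegfa windows held 2 and 6. On the minus strand, the Vegfa window with 2 lies downstream of the start that follows the window with 6. These counts describe letters in these windows and say nothing of binding.

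No member probe set passed the test between deprived and non-deprived cortex. Of the 11 probe sets, 10 passed the filter on low signals and were tested, covering 8 genes, and Vegfa lay just below it. None of the 10 had a limma adjusted p below 0.05, beside 0% of the 7453 probe sets tested. None had an unadjusted p under 0.05, where 4.79% of all tested probe sets did. In none did the 2 groups separate without overlap, as they did in 0.953% of all tested probe sets. The adjusted p-values of the members lay between 0.992 and 0.996, and all 10 of the 95% intervals included 0. In a fit with a replicate block, 6 of the 7453 probe sets passed the adjusted threshold, and no member did. Estimates lay below 0 for 5 genes and above 0 for 3, taking for each gene the tested probe set with the highest mean log2 value, and their median was -0.06 on the log2 scale, beside 0.0066 over all tested probe sets. Without non-deprived replicate 2 that median was 0.01, and without deprived replicate 4 it was 0.03.

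**Figure D1:**
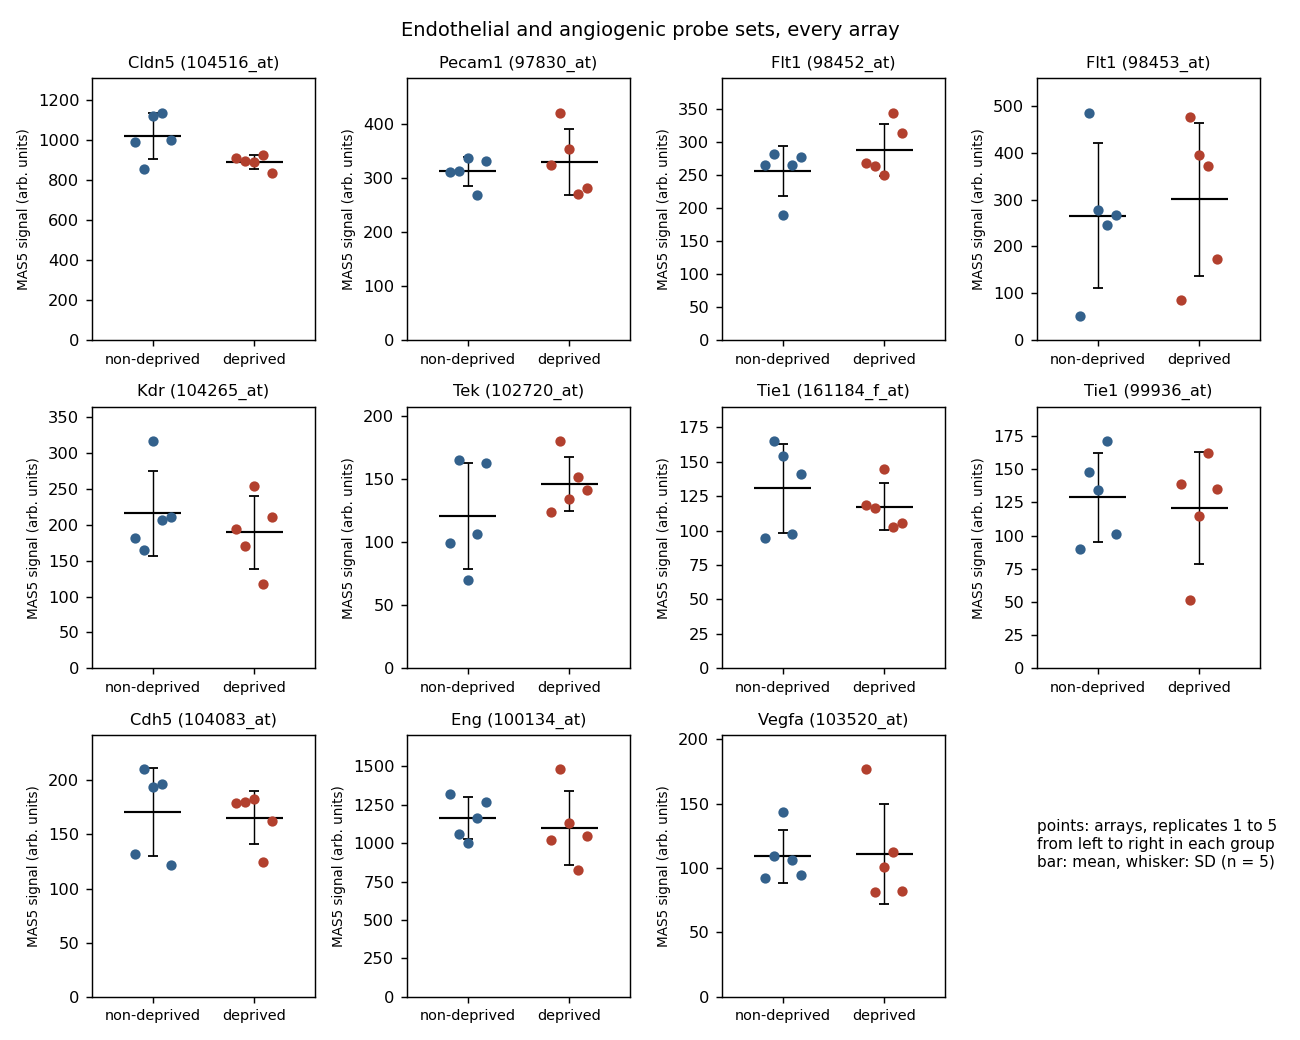
Signal of each member probe set in arbitrary units (vertical axes, starting at 0) on every array, non-deprived in blue and deprived in red, with the replicates 1 to 5 from left to right in each group, the mean as a bar and the SD as a whisker (n = 5). The groups overlap in all 11 panels, and the second Flt1 probe set runs from 51.5 to 487.

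Cldn5, the main claudin of endothelial tight junctions, came closest to a difference. Its signals in deprived replicates 1 to 5 were 909, 894, 892, 927 and 834. In the non-deprived replicates they were 988, 857, 1121, 1138 and 999. Of the 5 non-deprived arrays, 4 lay above every deprived array, and replicate 2 fell inside the deprived range. The means were 891 ± 34.8 and 1021 ± 114 (SD, n = 5 each), so the non-deprived arrays spread more widely around theirs. The log2 difference, deprived minus non-deprived, was -0.19 ± 0.09 (SE), with a 95% interval from -0.38 to 0.0075, which runs from -23.1% to 0.52% as a difference in percent. The limma p was 0.0583 unadjusted and 0.992 adjusted. Leaving out single arrays moved the estimate between -0.25 and -0.15.

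Cdh5, the vascular cadherin of endothelial adherens junctions, had signals of 179, 180, 183, 124 and 162 in deprived replicates 1 to 5. The non-deprived arrays gave 132, 210, 193, 197 and 122. Low and high arrays occurred in both groups, and 3 of the non-deprived arrays exceeded all deprived ones. The log2 difference was -0.02 ± 0.18 (SE; 95% interval -0.40 to 0.35). Its sign changed in 4 of the 10 fits that left out a single array.

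Pecam1, an adhesion molecule of endothelial cell borders that is also found on platelets and leukocytes, gave signals of 324, 421, 352, 269 and 281 in deprived replicates 1 to 5. In non-deprived cortex these were 312, 313, 337, 268 and 331. The 2 groups had nearly the same lowest value, and 2 deprived arrays exceeded all non-deprived ones. The log2 difference was 0.06 ± 0.13 (SE; 95% interval -0.21 to 0.34). Without deprived replicate 2, the array with the highest signal, the estimate was -0.03.

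Among the genes of vascular endothelial growth factor signalling, the ligand was dim. Vegfa, the growth factor itself, had signals of 177, 81.5, 101, 113 and 82.5 in deprived replicates 1 to 5 and of 92.1, 109, 143, 107 and 94.9 in the non-deprived replicates. Its overall level sat just under the filter, which corresponds to a signal of about 115, and the Tie1 probe sets just over it. The highest and the lowest signals of this probe set both came from deprived arrays. In the fit without a filter the log2 difference was -0.01 ± 0.21 (SE; 95% interval -0.48 to 0.45; adjusted p of 0.996), and differences from -28.1% to 36.3% lay inside that interval. Leaving out single arrays moved the estimate from -0.18, without deprived replicate 1, to 0.08, without non-deprived replicate 3, and its sign turned in 4 of the 10.

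Kdr, the main signalling receptor for this factor, had signals of 195, 171, 254, 117 and 211 in deprived replicates 1 to 5. Its non-deprived signals were 181, 165, 317, 207 and 211. Replicate 3 was the brightest in each group, and the group ranges overlapped over most of their length. The log2 difference was -0.18 ± 0.20 (SE; 95% interval -0.61 to 0.25). Leaving out deprived replicate 4, the dimmest array, brought the estimate to -0.03. Without non-deprived replicate 3, the brightest array, it was -0.04.

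Flt1, the other receptor, which binds the factor tightly and also exists as a soluble decoy, was read by 2 probe sets that behaved differently. The first probe set gave 268, 264, 250, 345 and 314 in deprived replicates 1 to 5, against 265, 282, 190, 266 and 278 in the non-deprived replicates. Of the deprived arrays, 2 exceeded all non-deprived ones, and 1 non-deprived array lay below all deprived ones, with the rest between 250 and 282. The log2 difference was 0.17 ± 0.13 (SE; 95% interval -0.12 to 0.45). Without non-deprived replicate 3, the low array, it was 0.07.

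The second Flt1 probe set gave 86.4, 478, 397, 372 and 174 in deprived replicates 1 to 5 and 51.5, 487, 279, 246 and 267 in the non-deprived replicates. Both arrays numbered 1 were the lowest of their group and both arrays numbered 2 the highest. The signals spanned 9.45-fold over the 10 arrays, beside 1.82-fold on the first Flt1 probe set. The SD within groups was 1.02 on the log2 scale, and 0.0939% of all tested probe sets had one as large. Of the variance within groups, 93.8% lay between replicate numbers, beside a median of 59% over all tested probe sets, and 2.51% of these had as high a share. With such a spread the log2 difference of 0.21 ± 0.50 (SE) had a 95% interval from -0.86 to 1.28. It became -0.24 without non-deprived replicate 1 and 0.56 without deprived replicate 1. The SE and interval come from the fit without a replicate block, so they include the spread between replicate numbers. With the block the estimate was again 0.21. Its unadjusted limma p was 0.270, against 0.681 without the block (adjusted p = 0.855 and 0.992).

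**Figure D2:**
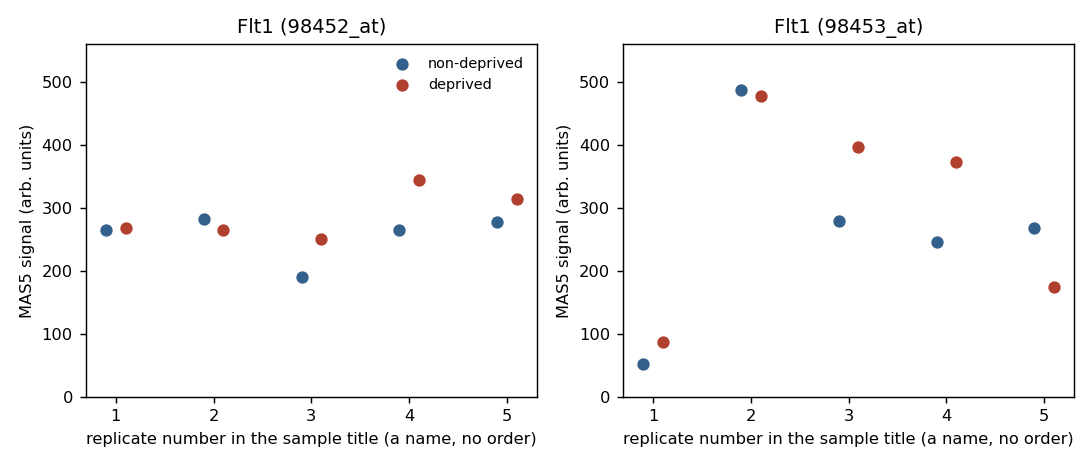
Signals of the 2 Flt1 probe sets in arbitrary units (vertical axis, starting at 0) against the replicate number of the sample title (horizontal axis), non-deprived in blue and deprived in red, 1 point per array. The first probe set stays between 190 and 345, while the second runs from 51.5 and 86.4 in the arrays numbered 1 to 487 and 478 in those numbered 2.

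The angiopoietin receptors gave estimates on both sides of 0. Tek, also known as Tie2, the receptor that binds the angiopoietins, had signals of 124, 180, 134, 152 and 141 in deprived replicates 1 to 5. In the non-deprived replicates they were 99.1, 165, 69.9, 106 and 163. Here 3 of the 5 non-deprived arrays lay below every deprived array, and the other two lay inside the deprived range. The means were 146 ± 21.5 and 121 ± 41.7 (SD, n = 5 each). The log2 difference, the highest among the members, was 0.29 ± 0.21 (SE; 95% interval -0.16 to 0.75; limma adjusted p = 0.992). It was 0.14 without non-deprived replicate 3 and 0.41 without non-deprived replicate 2.

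Tie1, the related receptor that modulates Tek, was dim on both probe sets. The first, of the family type, gave 118, 116, 145, 102 and 105 in deprived replicates 1 to 5 and 94.5, 165, 154, 97.8 and 141 in the non-deprived replicates. The deprived values lay wholly inside the non-deprived range. The second gave 139, 51.5, 115, 162 and 135 in deprived and 89.8, 148, 135, 171 and 101 in non-deprived replicates. Here the deprived group held the low value, 51.5 in replicate 2. Log2 differences were -0.11 ± 0.18 and -0.13 ± 0.26 (SE), with 95% intervals from -0.51 to 0.28 and from -0.68 to 0.43. On the first probe set the estimate was -0.21 without non-deprived replicate 1 and -0.03 without non-deprived replicate 2. On the second it turned to 0.11 without deprived replicate 2.

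Eng, endoglin, a co-receptor for TGF-beta family ligands in endothelium, had signals of 1018, 1479, 1132, 824 and 1045 in deprived replicates 1 to 5. The non-deprived signals were 1323, 1062, 1001, 1161 and 1268. Deprived arrays held both the highest and the lowest value, and all non-deprived arrays lay between them. The log2 difference was -0.10 ± 0.13 (SE; 95% interval -0.39 to 0.19). It was -0.21 without deprived replicate 2 and -0.0014 without deprived replicate 4.

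**Figure D3:**
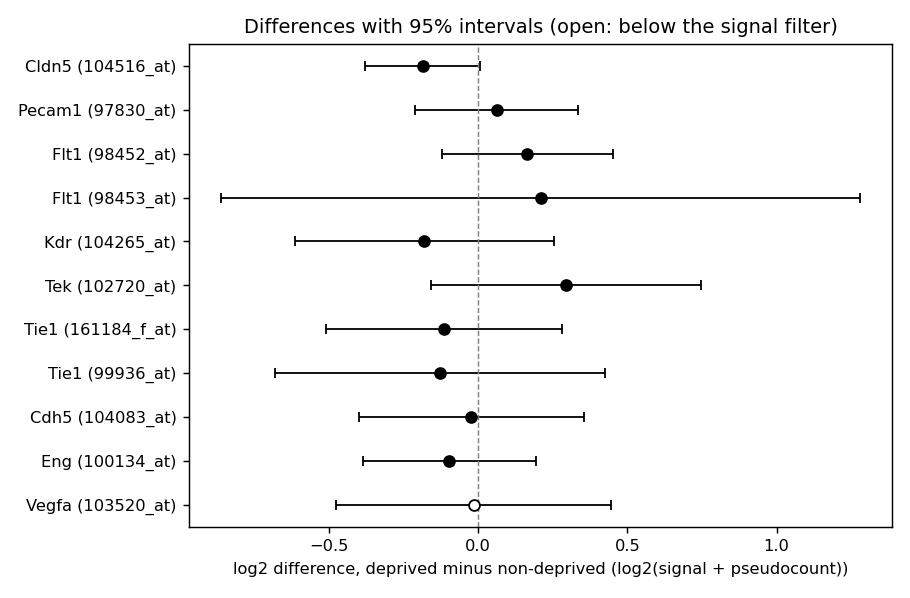
Log2 difference, deprived minus non-deprived, of each member probe set (horizontal axis, on the log2 scale of signal plus pseudocount) with its 95% interval from limma. Every interval includes 0; that of Cldn5 ends at 0.0075, and that of the second Flt1 probe set runs from -0.86 to 1.28. The open point is Vegfa, from the fit without a signal filter.

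The precision differed between members in the fit without a replicate block. The standard error was 0.09 for Cldn5 and 0.50 for the second Flt1 probe set, beside a median of 0.13 over all tested probe sets. Cldn5 had an SD within groups that exceeded only 13.4% of those of all tested probe sets, whereas the 2 receptors Kdr and Tek exceeded 89.2% and 88%. For Kdr, the interval of the difference ran from -34.7% to 19.2%. For Tek, it ran from -10.4% to 67.8%.

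Whether the members varied together over the arrays was examined after the group means were taken out. Over the 53 pairs of probe sets of different genes, the median Pearson r was -0.0089, with 26 pairs above 0, beside a median of 0.002 over random pairs of tested probe sets. The 10 arrays of a pair share array scaling and samples. The highest r was 0.69, between Pecam1 and Eng (Spearman's rho of 0.20; exact permutation p within groups = 0.0758 and 0.64, adjusted p = 0.513 and 0.996 over 55 pairs). Without the 2 arrays farthest from the Pecam1 median it fell to 0.02, so the relation rests on those arrays. The lowest r was -0.88, between the second Tie1 probe set and Eng (rho of -0.80; exact permutation p = 0.00375 and 0.0192, adjusted p = 0.185 and 0.527), and it was -0.66 without the 2 arrays farthest from the Tie1 median. Of all 55 pairs, 3 had an exact p under 0.05 for r and none passed after adjustment. Between probe sets of the same gene r was -0.03 for the 2 of Flt1 (rho of -0.05; exact permutation p = 0.939 and 0.942) and -0.01 for the 2 of Tie1 (rho of -0.05; exact permutation p = 0.975 and 0.942).

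**Figure D4:**
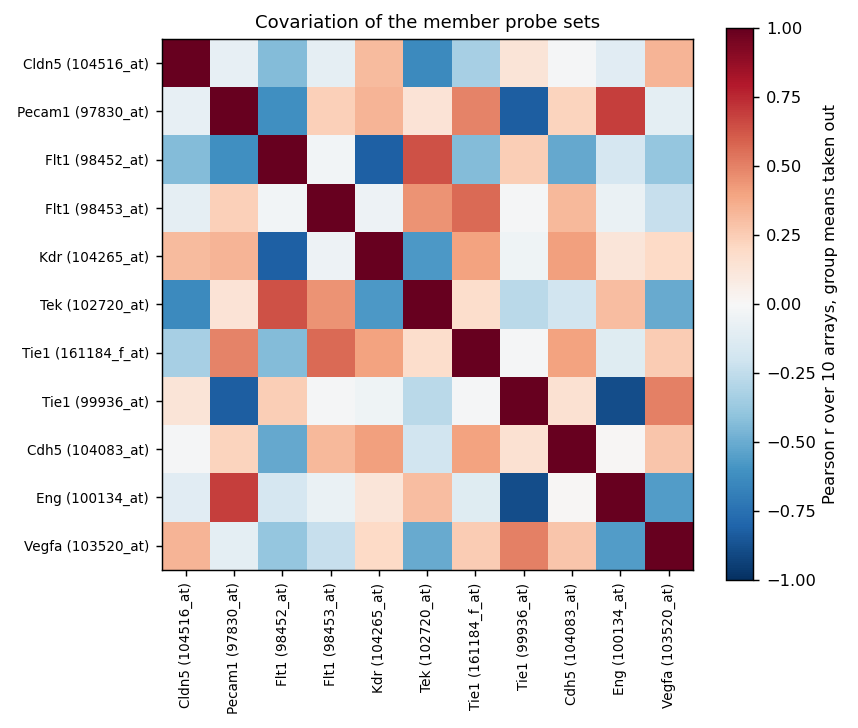
Pearson r between member probe sets over the 10 arrays after each group mean was taken out (colour scale from -1 in blue to 1 in red). Both signs occur across the matrix, from -0.88 for the second Tie1 probe set with Eng to 0.69 for Pecam1 with Eng.

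The 3 tested genes whose pattern over the arrays was most like that of Cldn5 were Txn2, Zfp106 and Gtf3c1. Their Pearson r to Cldn5 over the 10 arrays, group means taken out, was 0.93, 0.92 and 0.91, with rank correlations within groups of 0.85, 0.90 and 0.75. They were picked as the highest of all tested probe sets, so no p is given. None of them is a member.

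Further genes of vessel growth and of the endothelium were described in 5 lists with 61 tested genes. None had an adjusted p under 0.05, and for none did the groups separate. An unadjusted p under 0.05 was found for 3 of the 61, 1 higher and 2 lower in deprived cortex, which is 4.92%, beside the 4.79% of all tested probe sets. Estimates were above 0 for 32 genes and below 0 for 29, with a median of 0.01.

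Of 7 tested ligands, receptors and co-receptors of the growth factor and angiopoietin pathways, 3 had estimates above 0 and 4 below, with a median of -0.01. Vegfb, a relative of Vegfa that binds Flt1, had mean signals of 1066 ± 109 in deprived and 1064 ± 95.4 in non-deprived cortex (SD, n = 5 each; log2 difference 0.0013 ± 0.09 SE). The co-receptor Nrp1 had a log2 difference of -0.01 ± 0.09 (SE), and the semaphorin receptor Plxnd1 one of 0.10 ± 0.15. Its ligand Sema3e, with the smallest p of the list, had one of -0.21 ± 0.13.

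Of 11 tested genes of Notch, TGF-beta, ephrin and sphingosine signalling, 8 had estimates above 0, with a median of 0.09. S1pr1, the sphingosine-1-phosphate receptor of endothelium and astrocytes, had signals of 235 ± 38.1 against 175 ± 36.1 (SD, n = 5 each). That is a log2 difference of 0.41 ± 0.16 (SE), the one of the list with an unadjusted p under 0.05, and its limma adjusted p was 0.992. The probe set is of the family type. Id2, an inhibitor of helix-loop-helix factors, had a log2 difference of 0.14 ± 0.11 (SE), the arterial ligand Efnb2 one of 0.08 ± 0.16, and the signal transducer Smad1 one of 0.09 ± 0.12.

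Of 12 tested junction, barrier and transport genes, 5 lay above and 7 below 0, with a median of -0.04. Slc2a1, the glucose transporter of the barrier, averaged 576 ± 92 after deprivation and 686 ± 88.9 without it (SD, 5 arrays each). Its log2 difference of -0.25 ± 0.12 (SE) did not pass (limma adjusted p = 0.992). Ctnnb1, beta-catenin, had a log2 difference of -0.07 ± 0.08 (SE). Basigin, Bsg, had one of 0.06 ± 0.08 and the amino acid transporter subunit Slc3a2 one of -0.05 ± 0.09.

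Among 16 other surface and identity genes of endothelium, 8 lay above and 8 below 0, with a median of 0.0072. Sox17, a transcription factor of arterial endothelium, had signals of 336 ± 55.4 against 407 ± 45.3 (SD, n = 5 each) and a log2 difference of -0.27 ± 0.13 (SE; limma adjusted p = 0.992). Itm2a had a log2 difference of 0.11 ± 0.12 (SE). Ly6e, on a family-type probe set, had one of -0.07 ± 0.07. Palm, which neurons express, had one of -0.12 ± 0.17.

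Hypoxia is a known inducer of Vegfa, and 15 hypoxia factors and hypoxia-induced genes were tested, with 8 estimates above and 7 below 0 and a median of 0.01. Ldha, lactate dehydrogenase, had signals of 5393 ± 498 in deprived and 6072 ± 316 in non-deprived cortex (SD, n = 5 each; log2 difference -0.17 ± 0.08 SE; limma adjusted p = 0.992). Pgk1, a glycolytic kinase, had a log2 difference of -0.20 ± 0.12 (SE), and the aldolase Aldoa one of -0.04 ± 0.08.

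**Figure D5:**
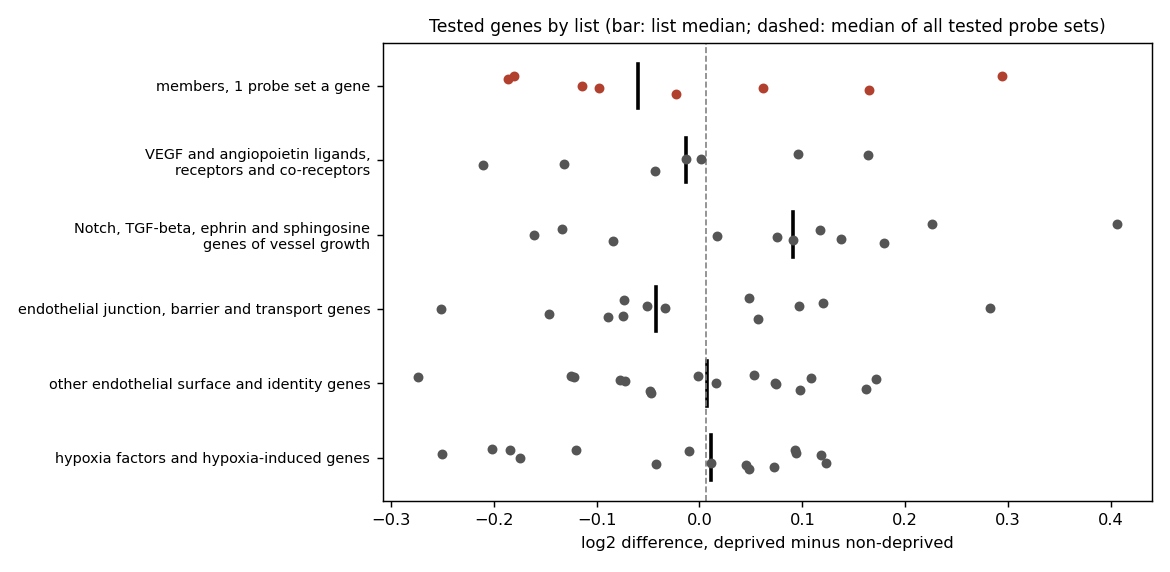
Log2 difference, deprived minus non-deprived (horizontal axis), of the tested members in red and of the tested genes of 5 further lists in grey, 1 probe set a gene, with the list median as a bar and the median of all tested probe sets as a dashed line. The lists straddle 0, with medians from -0.06 for the members to 0.09 for the Notch, TGF-beta, ephrin and sphingosine list.

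Markers of other cells that the dissected tissue could hold were set beside these values. In the neuron list, all 10 of the genes with a probe set passed the filter, among them Snap25 with group means of 13053 and 12765 and Tubb3, on a family-type probe set, at 8228 and 9724 (deprived first). Of 15 pericyte and smooth muscle markers, 9 were tested, with summed signals from 1708 to 2198 in deprived and from 1846 to 2041 in non-deprived arrays. Vtn and Notch3, the brightest of them, had log2 differences of 0.07 ± 0.15 and -0.06 ± 0.16 (SE). The mean log2 level of this list was 0.06 higher in deprived arrays, with 7 of 9 estimates above 0 (exact permutation p = 0.524, adjusted p = 0.611). Of 12 meningeal and perivascular fibroblast markers, 8 were tested, and 7 had estimates above 0. Their mean log2 level was 0.12 higher in deprived arrays (exact two-sided permutation p = 0.00794, the smallest that 5 against 5 arrays allow; adjusted p = 0.0556 over 7 lists). Under median scaling the difference was 0.09 (exact permutation p = 0.127), and without deprived replicate 2 it was 0.077. Their summed signals lay between 7801 and 8707 in deprived and between 7069 and 7934 in non-deprived arrays. The group means of Igf2 were 2588 (deprived) and 2063, and those of Col1a2 1781 and 1605. The summed signals of the 3 tested erythrocyte genes ran from 3487 to 7949 in deprived and from 3782 to 5074 in non-deprived arrays. The log2 differences of Hba-a1 and Hbb-b2, the brightest of these, were 0.19 ± 0.20 and 0.03 ± 0.15 (SE). Of 12 oligodendrocyte markers, 8 were tested and 7 had estimates above 0, as in the meningeal list. Their mean log2 level was 0.13 higher in deprived arrays (exact permutation p = 0.230, adjusted p = 0.403), with summed signals from 22955 to 30164 in deprived and from 20692 to 29533 in non-deprived arrays. The brightest, Mbp and Mobp, had log2 differences of -0.06 ± 0.11 and 0.14 ± 0.11 (SE). For the microglial genes Ctss and Csf1r these were 0.02 ± 0.12 and 0.11 ± 0.09, and for the astrocyte genes Gja1 and Aldoc 0.01 ± 0.11 and -0.12 ± 0.08. Of 10 tested microglia and macrophage markers, 8 had estimates above 0. Their mean log2 level was 0.08 higher in deprived arrays (exact permutation p = 0.0794, adjusted p = 0.278). Of 9 tested astrocyte markers, 5 had estimates above 0, and 1 of the 9 had an unadjusted limma p under 0.05, higher in deprived cortex. So did 1 of 8 in the meningeal list, Igf2, also higher, and 1 of 10 in the neuron list, Tubb3, lower. The other lists of this kind held none, and 4.79% of all tested probe sets had such a p. The mean log2 level of the astrocyte markers was 0.03 higher in deprived arrays (exact permutation p = 0.516, adjusted p = 0.611). The part of these cells in the values of the members was not tested. The pericyte, erythrocyte, microglia, astrocyte, oligodendrocyte and neuron lists had adjusted exact permutation p-values from 0.278 to 0.619. These p-values do not pair the arrays by replicate number. Paired by number, the meningeal, oligodendrocyte and neuron lists each had an exact permutation p of 0.0625, the smallest that 5 pairs allow. The meningeal and oligodendrocyte lists were higher in deprived arrays. The neuron list was lower, with a mean log2 difference of -0.05 and 7 of 10 estimates below 0. No marker with a probe set was listed at 0 on all arrays.

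The arrays themselves were similar in median signal and in correlation. Medians lay between 191 and 209, and arrays correlated at 0.954 to 0.979 across tested probe sets. Of 4 quality measures, none passed an exact two-sided permutation test between the groups, with the lowest adjusted p at 0.54. Non-deprived replicate 3 stood apart in its actin 3' to 5' ratio, at 1.897, beside 1.564 for the nearest of its group.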

How the data were processed

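Cortex RNA from 10 samples was measured on single-colour Affymetrix arrays. The deposited values are linear intensity signals, 1 per probe set and array, made by the authors with MAS5 per the submitters' processing notes. Its version and target value were not given in the sources used here. The 2% trimmed mean was 500 on every array. Detection calls were not used.

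Of 12488 probe sets, 66 controls were left out. Signals were taken as log2(signal + 16), where 16 is the 10th percentile of all signals, so differences of dim probe sets are understated. The 7453 probe sets above the 40th percentile of the mean log2 value were fitted with limma 3.58.1 in R 4.3.3 (lmFit, and eBayes with an intensity trend), deprived against non-deprived, without a replicate block. P-values were adjusted by Benjamini and Hochberg over all 7453. Single measures and lists of markers were compared by exact permutation over arrays. The steps were tested on simulated data. Gene names came from the platform's annotation, and 10833 probe sets had 1 symbol. Values with ± are SD or SE as given, and precision is limited by the array number.

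The genes named are all members, the 3 brightest genes and the one with the smallest p in each pathway list, the 2 brightest genes of lists of other cells, and the 3 probe sets most like Cldn5. Vegfa had no tested probe set, so no likeness was sought for it. Tubb3, Igf2 and the other markers follow this rule. Members and lists were chosen with earlier results of these data known. Alternatives were the pseudocount, the filter, the scaling, the trend, the replicate block and leaving out each array.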

Additional observations from a re-analysis of the deposited data

Results flagged for a closer look

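In 96 groups of 5 arrays, the extreme array was set against the nearest other one, and 5 groups, or 5.21%, had a gap over 0.71 of the range, a share near the 5% that chance gives at this limit. The first Flt1 probe set had a non-deprived array at 189.8, with the nearest at 265. Ctnnb1 had a non-deprived array at 7817.3, with the nearest at 6500. Slc3a2 had a deprived array at 2697.4, with the nearest at 3384.3. Aldoa had a non-deprived array at 13650, with the nearest at 11528.5. The actin 3' to 5' ratio, a measure of RNA integrity, was 1.897 in non-deprived replicate 3, with the nearest at 1.564. The same array gave the 189.8 of Flt1, the lowest Tek signal, 69.9, and the highest Kdr signal, 317. Without it the log2 differences were 0.07 for the first Flt1 probe set, 0.14 for Tek and -0.04 for Kdr. Those of Pecam1 and Eng, among others, moved away from 0, to 0.09 and -0.15. Whether RNA integrity had a part in these values was not tested.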

How the results depend on the processing

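The count of member probe sets past the adjusted threshold was 0 in the 18 alternatives run for it, with the replicate block included. Over all tested probe sets the count moved from 0 to 6 with the replicate block, 2 with a pseudocount of 48, 2 with the filter at the 60th percentile, 5 without non-deprived replicate 1 and 1 without deprived replicate 4. Replicate numbers were not taken as pairs because the labels do not state a pairing. The values do show a likeness by number. With each group mean taken out, deprived and non-deprived arrays of the same number correlated at 0.02 to 0.23 over tested probe sets. Of these 5 values, 4 were above 0.1, against -0.25 to 0.09 for other numbers. Of the 10 arrays, 9 correlated best with their own number among the arrays of the other group. The SEs, intervals and p-values given without the block, also those of the covariation, take the arrays as independent. Median scaling moved the median of all tested probe sets to -0.03. Leaving out single arrays gave ranges of -0.09 to 0.03 for the median over member genes, -0.027 to 0.13 for Pecam1, -0.24 to 0.56 for the second Flt1 probe set, -0.24 to 0.11 for the second Tie1 probe set and -0.13 to 0.067 for Cdh5, and -0.18 to 0.075 for Vegfa in the fit without a filter. The same gave -0.031 to 0.20 for erythrocyte markers, -0.011 to 0.077 for astrocyte markers and -0.040 to 0.072 for the actin ratio, and astrocyte markers stood at -0.0041 under median scaling. The cause was not tested. Cldn5 stayed below 0 in its 18 alternatives, with a lowest limma adjusted p of 0.791. Its unadjusted limma p was under 0.05 in 3 of the 18. These were 0.0133 without non-deprived replicate 2, 0.0322 under median scaling and 0.0473 without the filter. The meningeal list no longer passed the unadjusted threshold under median scaling (exact permutation p = 0.127) or with the replicate block (0.0625, the smallest that 5 pairs allow). With the block the oligodendrocyte and neuron lists also reached 0.0625 in the exact paired permutation, so that within each list the 5 numbers had 1 sign. The oligodendrocyte list was higher in deprived arrays and the neuron list lower.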
